A study of Arabidopsis thaliana with 8 samples.

Results

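Leucine, isoleucine and valine, the branched-chain amino acids, are broken down in plant mitochondria, and 6 genes of that route were followed in Arabidopsis thaliana in the cold. They were MCCA, MCCB, IVD, AT2G26800, AT1G21400 and the gene read by the array feature 264524_at. The 6 were picked by name with earlier results of these data known, among them their cold response. Each had 1 probe set, a group of short probes for 1 transcript, out of 22746 probe sets that were not array controls, and all 6 passed the filter that left 13648 brighter probe sets for testing. The annotation used here pairs no gene with 264524_at, and the choice of members gave it as BCAT2, a branched-chain aminotransferase, so it is called 264524_at throughout. The probe set of AT1G21400 is also paired with AT5G34780, and the signals of these 2 genes cannot be told apart.

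The 8 arrays (Affymetrix ATH1, total RNA) fell into 4 groups of 2 by genotype and temperature. The sfr3 mutant, an EMS-mutagenised line in the Col-0 background with the allele sfr3-1, was measured in the cold and in the warm, and Col-0 wild type likewise. All plants shared their culture before harvest, with seeds kept at 4 °C for 48 h and 38 days of growth at 20 °C under 8 h of light and 16 h of dark, to stage 1.14. The sfr3 samples are described as above-ground tissue and the wild-type samples as whole rosettes, a difference that cannot be told apart from genotype, and the sources used here do not state how cold the treatment was or how long it lasted. Nothing in the labels says that the 2 samples of a group came from separate plants, so each p-value reflects the spread among these arrays alone, possibly a technical one, and the number of arrays limits the precision.

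One array stood apart before any gene was compared. Replicate 1 of sfr3 in the cold had a median signal of 52.5 units, against 36.6 to 39.0 on the other 7 arrays, and a background of 35.4 units, against 6.37 to 11.3 (the 95th percentile of 27 dark control probe sets). Over 18 hybridisation control probe sets, its median ratio to the other arrays was 5.75, against 0.542 to 1.18 for the other 7. The 2 cold sfr3 arrays differed by a median of 0.767 on the log2 scale, against 0.263 to 0.323 between the replicates of the other groups. Values of the members for sfr3 in the cold are therefore given with and without that array where it moves them. For the other genes this was done for some only, so an sfr3 value given once may also move with that array. Of the 48 member values, only IVD on that array, 9.46 units, lay at or below its array's background. On a different measure, the ratio of 3' to 5' actin signal, replicate 1 of sfr3 in the warm was highest. It had 4.69, against 1.38 to 2.84 on the other arrays.

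As background, the route begins when branched-chain aminotransferases take the amino group off the amino acid and the branched-chain keto acid dehydrogenase complex turns the keto acid into an acyl-CoA. The leucine branch then runs through isovaleryl-CoA dehydrogenase, 3-methylcrotonyl-CoA carboxylase, a hydratase and HMG-CoA lyase, and ends in acetoacetate and acetyl-CoA. In leaves the route is known to be used when sugars are short, as in extended darkness, where its electrons reach the respiratory chain through the electron-transfer flavoprotein. SFR3 is known as the gene of the cytosolic acetyl-CoA carboxylase, an enzyme that carries biotin, as 3-methylcrotonyl-CoA carboxylase does.

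In the cold, the signals of 5 of the 6 genes lay well below their warm signals in both genotypes, and that of AT2G26800 lay closer to its warm signal. Because the genes were chosen with this contrast known, these differences are a description and carry no test. All 6 had both cold arrays below both warm arrays, in sfr3 and in wild type. Over all probe sets tested, 30.3% had this order in sfr3 and 37.4% in wild type. Total RNA from whole tissue cannot tell fewer cells of a type from less RNA per cell.

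**Figure D1:**
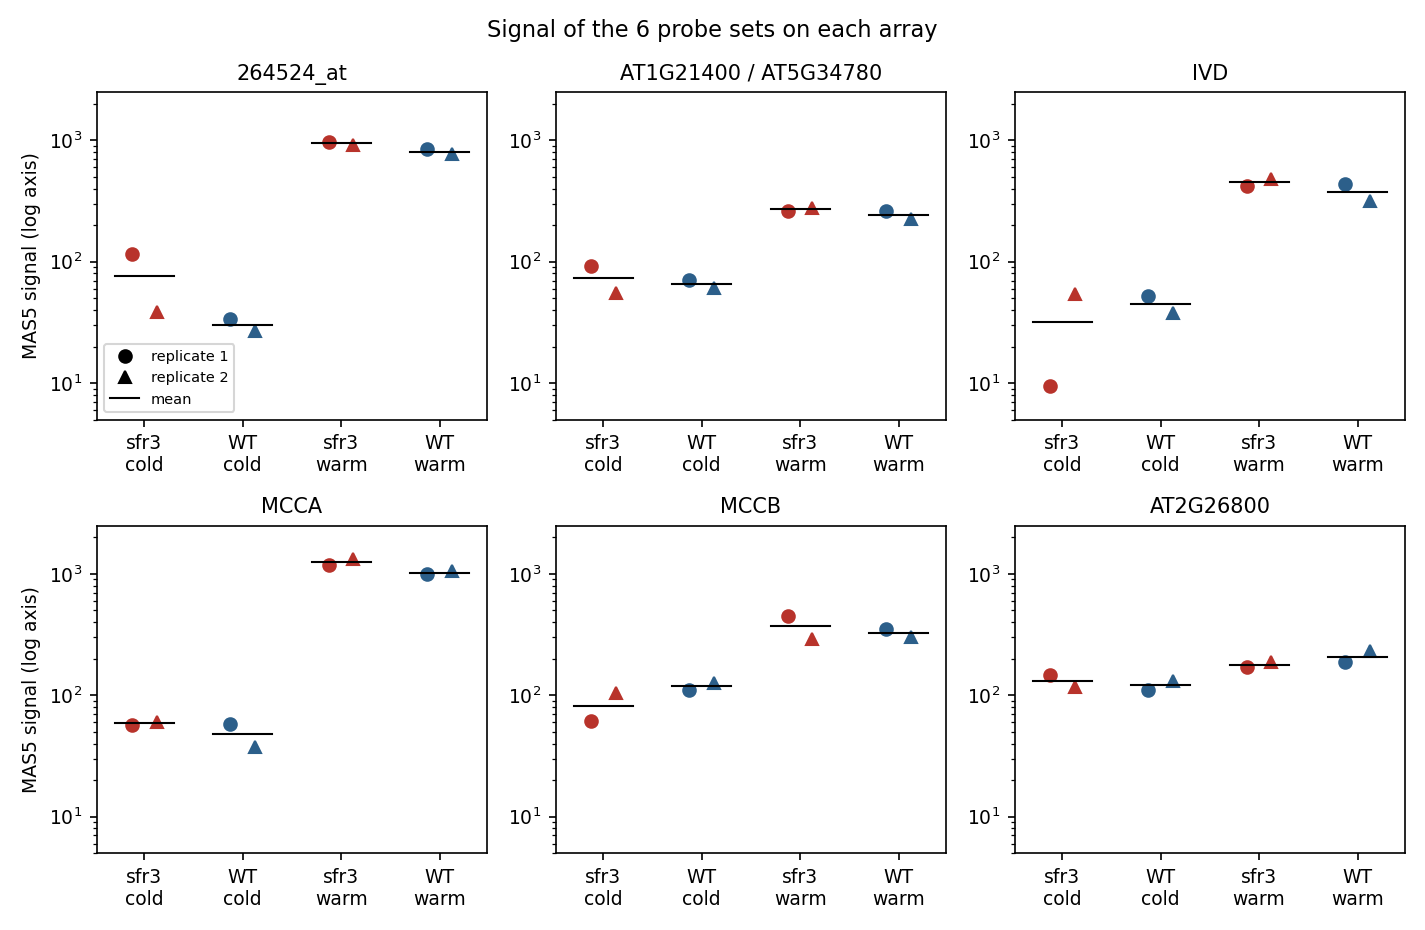
Signal of each member on every array, in array units on a log axis, for sfr3 and wild type in the cold and then sfr3 and wild type in the warm; points are arrays and bars are group means. MCCA lies between 37.5 and 60.7 units on the 4 cold arrays and between 992 and 1336 units on the 4 warm arrays, while the AT2G26800 groups lie closest together.

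The first step of the route is read by 264524_at, with the limit on its name given above. It had 115 and 38.2 units in sfr3 in the cold, against 974 and 922 units in sfr3 in the warm. The wild-type values were 33.7 and 26.7 units in the cold, against 847 and 766 units in the warm. Every cold value was below every warm value, and the highest cold value was that of the array that stood apart. The cold mean was 8.10% of the warm mean in sfr3 and 3.74% in wild type. On the scale of the fit, log2(signal + 2.17), the difference of cold minus warm was -3.78 (SE 0.41) in sfr3, or -4.56 without replicate 1 of sfr3 in the cold, and -4.65 (SE 0.41) in wild type.

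AT1G21400 encodes an E1 subunit of the branched-chain keto acid dehydrogenase, the step that commits the carbon skeleton to breakdown. Its probe set had 92.7 and 55.2 units in sfr3 in the cold, against 263 and 279 units in sfr3 in the warm. Wild type gave 70.7 and 60.4 units in the cold, against 262 and 224 units in the warm. The 2 genotypes were close: the cold mean was 27.3% of the warm mean in sfr3 and 27.0% in wild type. The log2 differences were -1.89 (SE 0.26) in sfr3 and -1.86 (SE 0.26) in wild type, with -2.25 in sfr3 without replicate 1 of the cold and -1.53 without replicate 2.

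IVD, isovaleryl-CoA dehydrogenase, oxidises the acyl-CoA made from leucine and passes electrons to the electron-transfer flavoprotein. It had 9.46 and 54.5 units in sfr3 in the cold, against 423 and 483 units in sfr3 in the warm. Cold wild-type arrays read 52.3 and 38.1 units, against 436 and 317 units on the warm ones. Both cold groups were well below the warm ones, but the 2 cold sfr3 arrays disagreed more for IVD than for any other member. The log2 difference was -4.14 (SE 0.59) in sfr3, with -3.002 when the array that stood apart was left out and -5.29 when the other cold sfr3 array was left out. In wild type it was -2.998 (SE 0.59), so the larger value in sfr3 rested on that 1 array.

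MCCA and MCCB encode the 2 subunits of 3-methylcrotonyl-CoA carboxylase, MCCA the subunit that carries biotin and MCCB the partner that transfers the carboxyl group. MCCA had 56.9 and 60.7 units in sfr3 in the cold, against 1176 and 1336 units in sfr3 in the warm. The wild-type values were 58.0 and 37.5 units in the cold, against 992 and 1055 units in the warm. The groups were far apart, and the 2 cold sfr3 arrays were close to each other, the one that stood apart included. The cold mean of MCCA was 4.68% of the warm mean in sfr3 and 4.67% in wild type. Its log2 differences were -4.36 (SE 0.22) in sfr3 and -4.39 (SE 0.22) in wild type, among the lowest 0.388% and 0.308% of all probe sets tested.

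The partner subunit kept more of its warm signal. MCCB had 60.8 and 103 units in sfr3 in the cold, against 451 and 292 units in sfr3 in the warm. Wild type gave 110 and 126 units in the cold, against 352 and 301 units in the warm. The groups did not overlap, and the lowest cold value was that of the array that stood apart. The cold mean was 22.1% of the warm mean in sfr3 and 36.1% in wild type. The log2 difference was -2.16 (SE 0.29) in sfr3, or -1.79 without replicate 1 of the cold, and -1.45 (SE 0.29) in wild type.

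AT2G26800 is annotated as HMG-CoA lyase, which makes acetoacetate and acetyl-CoA in the last step of the leucine branch. It had 146 and 116 units in sfr3 in the cold, against 170 and 187 units in sfr3 in the warm. Cold wild-type arrays read 110 and 132 units, against 187 and 229 units on the warm ones. The order of the arrays was the same as for the other members, but the distance was small. The cold mean was 73.3% of the warm mean in sfr3 and 58.1% in wild type. Its log2 differences were -0.45 (SE 0.22) in sfr3 and -0.77 (SE 0.22) in wild type. Of all probe sets tested, 30.5% had a difference as low or lower in sfr3 and 17.4% in wild type.

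**Figure D2:**
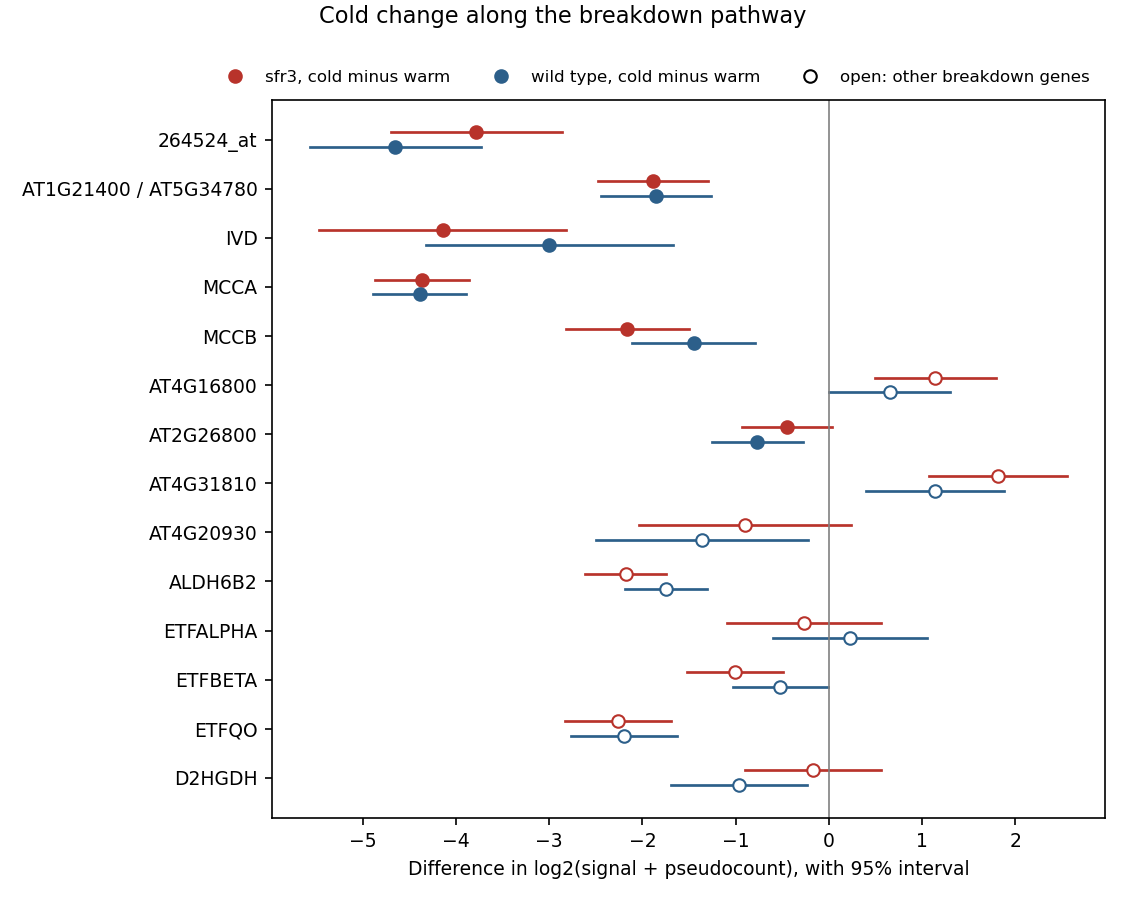
Cold minus warm difference of the members and of the other breakdown genes tested, on the log2(signal + 2.17) scale, with the sfr3 point above the wild-type point for each gene and 95% intervals of the limma fit as bars. MCCA lies at -4.36 in sfr3 and -4.39 in wild type, AT2G26800 at -0.45 and -0.77, and CHY4 (AT4G31810) on the other side of 0 at 1.82 and 1.14.

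Set in order by size, the differences ran in sfr3 from MCCA through IVD, 264524_at, MCCB and AT1G21400 to AT2G26800. In wild type the order was 264524_at, MCCA, IVD, AT1G21400, MCCB and AT2G26800. Without the array that stood apart sfr3 had this same order, with 264524_at at -4.56, MCCA at -4.32, IVD at -3.002, AT1G21400 at -2.25, MCCB at -1.79 and AT2G26800 at -0.61. With all arrays, several neighbours lay no further apart than their errors. In sfr3, MCCA, IVD and 264524_at lay between -4.36 and -3.78 while the SE of IVD alone was 0.59, and MCCB and AT1G21400, at -2.16 and -1.89, had SEs of 0.29 and 0.26. In wild type the same held for 264524_at and MCCA, at -4.65 and -4.39, whereas the step from MCCA to IVD, at -2.998, was wider than the SE of either. AT2G26800 came last in both. The median over the 6 was -2.97 in sfr3 and -2.43 in wild type, against 0.06 and -0.00 over all probe sets tested, and the sfr3 median was -2.63 without the array that stood apart.

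**Figure D3:**
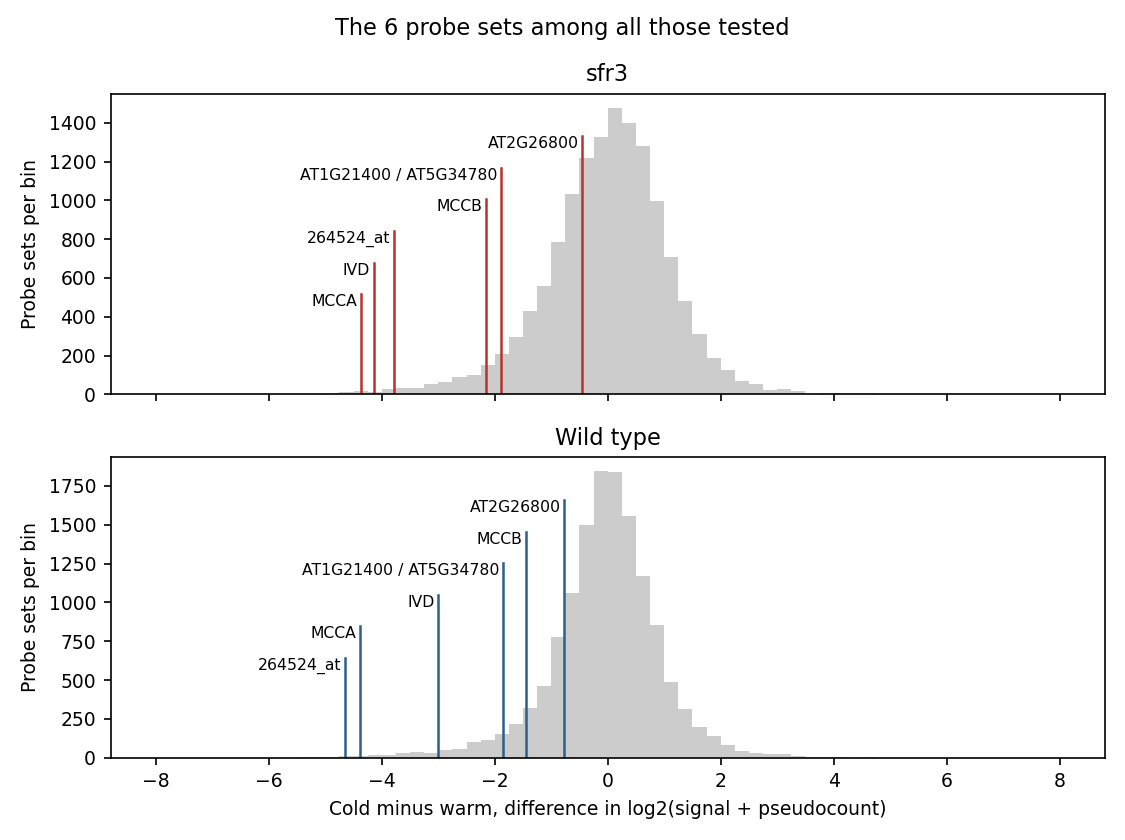
Distribution of the cold minus warm differences, on the log2(signal + 2.17) scale, of all 13648 probe sets tested, for sfr3 above wild type, with the members marked. The medians of all probe sets lie at 0.06 in sfr3 and -0.00 in wild type, and 5 members lie in the lower tail of each distribution.

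Whether the mutation moved the 6 genes was a separate question, and the rule for the members uses no genotype contrast, so these were tested (limma, Benjamini-Hochberg over all probe sets tested). In the warm, 0 of the 6 were called at an adjusted p below 0.05, and 0 had an unadjusted p below 0.05. Over all probe sets, 0% were called and 102 had an unadjusted p below 0.05. The mean was higher in sfr3 for 5 of the 6, the exception being AT2G26800, with differences of sfr3 minus wild type between -0.21 and 0.29. MCCB turned to -0.15 without replicate 1 of sfr3 in the warm, so its place in that count depends on 1 array. Only 264524_at, AT1G21400 and MCCA had both warm sfr3 arrays above both warm wild-type arrays, an order that 14.2% of all probe sets had.

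The intervals show what the fit could resolve with 2 arrays against 2. Their spread was estimated over all 8 arrays, so the 2 cold sfr3 arrays, which disagreed most for IVD, entered the warm intervals too. For MCCA in the warm, 1256 ± 113 units in sfr3 against 1023 ± 44.3 units in wild type (SD, n = 2 each), the log2 difference was 0.29 with a 95% interval of -0.21 to 0.79. For IVD it was 0.28 with an interval of -1.04 to 1.60, and for AT2G26800 -0.21 with an interval of -0.70 to 0.28. For 264524_at it was 0.23 with an interval of -0.68 to 1.15. MCCB, at 0.16 with an interval of -0.51 to 0.82, and AT1G21400, at 0.16 with an interval of -0.43 to 0.75, lay nearest to 0. The smallest adjusted p among the 6 was 1.00 to 3 digits, and an interval that spans 0 does not show that the genotypes were alike.

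In the cold, 0 of the 6 were called between sfr3 and wild type either, against 0.125% of all probe sets (17 called, and 1775 with an unadjusted p below 0.05). The 1 member with an unadjusted p below 0.05 was 264524_at, at 76.8 ± 54.6 units in sfr3 and 30.2 ± 4.94 units in wild type (SD, n = 2 each). Both its cold sfr3 values lay above both cold wild-type values, an order that 20.7% of all probe sets had. Its log2 difference was 1.10 (95% interval 0.18 to 2.02), with an adjusted p of 0.367 (limma). Without the array that stood apart the difference was 0.33.

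IVD went the other way, at 32.0 ± 31.9 units in sfr3 against 45.2 ± 9.99 units in wild type (SD, n = 2 each), and its cold groups overlapped. Its log2 difference of -0.87 (95% interval -2.19 to 0.46, limma adjusted p 0.501) became 0.28 without the array that stood apart, so its sign turned on that array. MCCB had both cold sfr3 values below both cold wild-type values, as 21.2% of all probe sets had, with a difference of -0.56 (interval -1.22 to 0.11, limma adjusted p 0.427) and -0.18 without that array. MCCA, at 0.32, AT1G21400, at 0.13, and AT2G26800, at 0.11, had adjusted p of 0.509, 0.824 and 0.813 by limma. Of these 3, the signs of AT1G21400 and AT2G26800 also turned without that array, to -0.24 and -0.05.

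With the array that stood apart as the only cold sfr3 sample, 3 members were called between the genotypes in the cold. These were 264524_at at 1.87, IVD at -2.01 and MCCB at -0.93. In that same fit, where the lone array was assumed to vary like the other groups, 5372 of all probe sets were called, against 17 with both arrays.

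**Figure D4:**
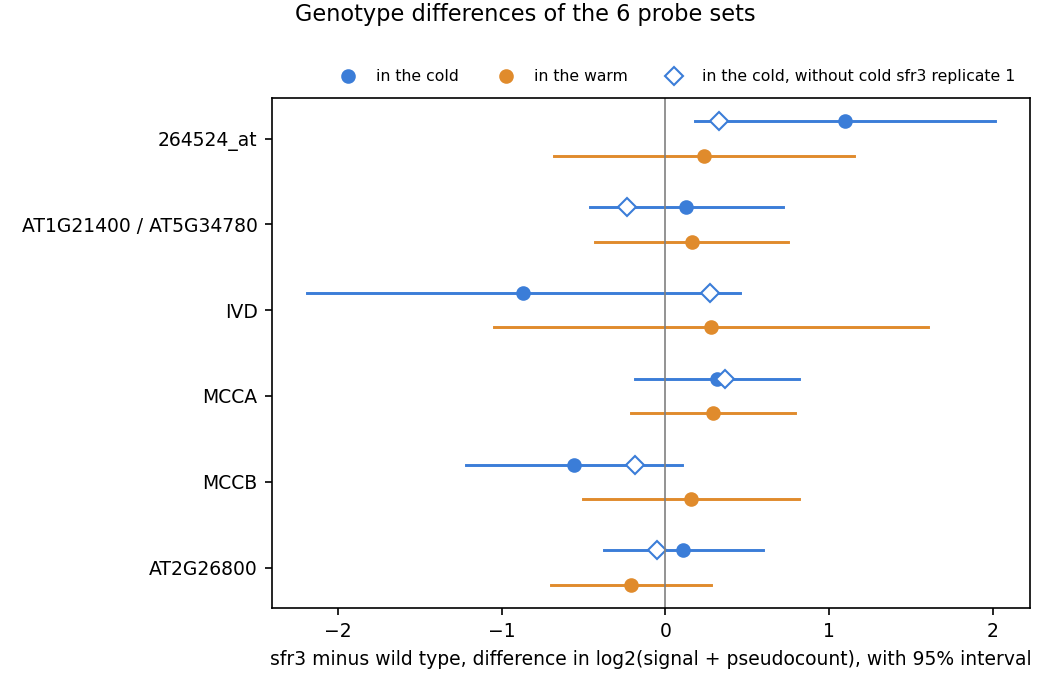
Difference of sfr3 minus wild type for each member in the warm and in the cold, on the log2(signal + 2.17) scale, with 95% intervals of the limma fit as bars; open marks leave out replicate 1 of sfr3 in the cold. In the cold 264524_at lies at 1.10 with all arrays and at 0.33 without that replicate, and IVD at -0.87 and 0.28.

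The difference in cold change between the genotypes was tested as an interaction, the sfr3 change minus the wild-type change. It called 0 of the 6 members, against 0.0366% of all probe sets (5 called, and 803 with an unadjusted p below 0.05). MCCA had nearly the same change in both genotypes, with an interaction of 0.03 (95% interval -0.68 to 0.73). The widest values were IVD at -1.15 (interval -3.02 to 0.73), 264524_at at 0.87 (interval -0.43 to 2.16) and MCCB at -0.71 (interval -1.65 to 0.22), with adjusted p of 0.736, 0.733 and 0.733 by limma. The values of IVD and 264524_at rested on the array that stood apart, since without it they were -0.0041 and 0.09. That of MCCB was -0.34 without the same array and -0.40 without replicate 1 of sfr3 in the warm. Over both temperatures together 0 of the 6 were called between sfr3 and wild type, against 0.0513% of all probe sets (7 called, and 718 with an unadjusted p below 0.05). There 264524_at alone had an unadjusted p below 0.05, at 0.67 with an adjusted p of 0.828, and at 0.28 without the array that stood apart. With the array that stood apart as the only cold sfr3 sample, 3 members were called for the interaction and 2 over both temperatures, in fits that called 3802 and 3251 of the 13648 probe sets.

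The rest of the pathway moved in both directions in the cold. This list and those below were also chosen with earlier results of these data known. Their cold calls and p-values are therefore a description and not independent evidence. Of 16 other breakdown genes in a list of the route, 9 had a probe set of their own and 8 were tested. In sfr3, 3 of the 8 fell and 2 rose, where 16.4% of all probe sets fell and 14.9% rose. In wild type, 2 of the 8 fell and 1 rose, where 13.3% of all probe sets fell and 13% rose. Their median difference was -0.59 in sfr3 and -0.74 in wild type. Between the genotypes, in either temperature, and for the interaction, limma called 0 of the 8, and 0 had an unadjusted p below 0.05. When only the wild-type arrays were fitted, 7 of the 8 were called in wild type, AT4G16800, HDH1, ETFBETA and D2HGDH in addition. Their differences did not change, while the estimate of the spread no longer drew on the sfr3 arrays. That fit called 6551 of the 13648 probe sets for cold in wild type, against 3594 with all arrays.

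The electron path downstream of IVD was also read. ETFQO, the oxidoreductase that hands electrons from the electron-transfer flavoprotein to ubiquinone, had 40.5 and 56.6 units in sfr3 in the cold, against 234 and 241 units in sfr3 in the warm. The wild-type values were 38.9 and 50.7 units in the cold, against 237 and 189 units in the warm. It fell by 2.26 on the log2 scale in sfr3 (limma adjusted p 3.04e-04) and fell by 2.20 in wild type (limma adjusted p 3.53e-04). ETFBETA, the beta subunit of the flavoprotein, fell by 1.01 in sfr3 (adjusted p 0.00989) and had a difference of -0.52 in wild type (adjusted p 0.128). Its sfr3 call was lost without replicate 2 of sfr3 in the warm, at an adjusted p of 0.0809. The alpha subunit, ETFALPHA, was at -0.27 in sfr3 and 0.23 in wild type with no call, and in sfr3 at -0.85 (adjusted p 0.0202) without the array that stood apart.

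In the valine branch, ALDH6B2 encodes methylmalonate-semialdehyde dehydrogenase. It had 285 and 364 units in sfr3 in the cold, against 1463 and 1473 units in sfr3 in the warm. Wild type gave 429 and 354 units in the cold, against 1405 and 1227 units in the warm. The groups did not overlap, and it fell by 2.18 in sfr3 (limma adjusted p 8.37e-05) and fell by 1.75 in wild type (limma adjusted p 2.86e-04). ALDH6B2 and ETFQO were called in both genotypes under each alternative run for them. HDH1 (AT4G20930), annotated as a 3-hydroxyisobutyrate dehydrogenase of the same branch, was at -0.90 in sfr3 and -1.37 in wild type with no call, and in sfr3 at -1.54 (adjusted p 0.0119) without the array that stood apart.

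The genes that rose encode hydratase or hydrolase family enzymes. CHY4 (AT4G31810), of the family of 3-hydroxyisobutyryl-CoA hydrolases, had 83.6 and 100 units in sfr3 in the cold, against 29.4 and 20.3 units in sfr3 in the warm. Cold wild-type arrays read 61.6 and 82.0 units, against 31.3 and 30.8 units on the warm ones. CHY4 rose by 1.82 in sfr3 (limma adjusted p 0.00348) and rose by 1.14 in wild type (limma adjusted p 0.0302). The wild-type call did not hold when any single wild-type array was left out, at adjusted p of 0.0923 to 0.252. AT4G16800, listed as the hydratase between the carboxylase and HMG-CoA lyase, rose by 1.14 in sfr3 (adjusted p 0.0163) and was at 0.65 in wild type (adjusted p 0.131). Its sfr3 call was lost without replicate 1 or replicate 2 of sfr3 in the warm, at adjusted p of 0.0825 and 0.0796. D2HGDH, a dehydrogenase of D-2-hydroxyglutarate that also feeds the flavoprotein, was at -0.17 in sfr3 and -0.96 in wild type with no call. In sfr3 its sign depended on the array: 0.29 without the array that stood apart, and -0.63 with that array as the only cold sfr3 sample. AT5G09300, the other E1 gene with a probe set, was too dim to be tested and read between 13.5 and 57.1 units over the 8 arrays.

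The opposite route, synthesis of the same amino acids in the chloroplast, had 5 of its 19 listed genes tested, of which 1 fell and 2 rose in each genotype. AT2G31810, a regulatory subunit of acetohydroxyacid synthase, which opens the synthesis, had 116 and 174 units in sfr3 in the cold, against 1066 and 1143 units in sfr3 in the warm. The wild-type values were 180 and 211 units in the cold, against 1173 and 974 units in the warm. The regulatory subunit lay far lower in the cold and fell by 2.93 in sfr3 (limma adjusted p 3.97e-05) and fell by 2.44 in wild type (limma adjusted p 9.95e-05). The next enzymes of synthesis went the other way. Ketol-acid reductoisomerase (AT3G58610) rose by 0.90 in sfr3 (adjusted p 0.00559) and rose by 0.74 in wild type (adjusted p 0.0154). Dihydroxyacid dehydratase (AT3G23940) rose by 1.13 in sfr3 (adjusted p 0.0043) and rose by 0.95 in wild type (adjusted p 0.0103). When each array was centred on its median, these calls were lost in sfr3, at adjusted p of 0.119 for AT3G58610 and 0.0673 for AT3G23940, and in wild type, at 0.0828 and 0.0504. The AT3G58610 call was also lost in sfr3 without replicate 2 of sfr3 in the warm (adjusted p 0.0508), and in wild type without any single wild-type array (adjusted p 0.0729 to 0.149). The wild-type call of AT3G23940 was lost without replicate 2 of the cold (adjusted p 0.118) and without either warm replicate (adjusted p 0.0794 and 0.0546). The median over the 5 was 0.54 in sfr3 and 0.55 in wild type.

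Breakdown genes of other amino acids also had lower cold signals. Of 22 listed, 5 were tested, of which 4 fell in sfr3 and 3 in wild type and 0 rose, with medians of -2.42 in sfr3 and -1.83 in wild type. MGL, methionine gamma-lyase, which feeds methionine into isoleucine, had 79.7 and 51.6 units in sfr3 in the cold, against 784 and 526 units in sfr3 in the warm. It fell by 3.28 in sfr3 (limma adjusted p 1.87e-04) and fell by 3.46 in wild type (limma adjusted p 1.41e-04). AT4G33150, the lysine-ketoglutarate reductase and saccharopine dehydrogenase of lysine breakdown, fell by 2.42 in sfr3 (adjusted p 3.66e-04) and fell by 2.27 in wild type (adjusted p 5.17e-04). The proline dehydrogenase gene AT5G38710 was not above background in sfr3 in the cold and was at least 2.63-fold lower there than in sfr3 in the warm (adjusted p 0.00339), a bound set by the background of the cold arrays. Its difference in wild type, -1.83, was not called (limma adjusted p 0.0514). It was called when only the wild-type arrays were fitted (limma adjusted p 8.26e-04), with the difference still at -1.83. That fit, as given above, also called more of all probe sets for cold in wild type. The sfr3 call was lost without replicate 1 of sfr3 in the warm, at an adjusted p of 0.0578. DELTA-OAT, the ornithine aminotransferase of arginine and ornithine breakdown, was the remaining gene called in both genotypes. Its sfr3 call was lost without replicate 1 or replicate 2 of sfr3 in the warm (adjusted p 0.0772 and 0.0559), so that without replicate 1 only MGL and AT4G33150 were called in sfr3. Its wild-type call was lost without replicate 2 of the cold (adjusted p 0.117) and without either warm replicate (adjusted p 0.0809 and 0.0881).

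**Figure D5:**
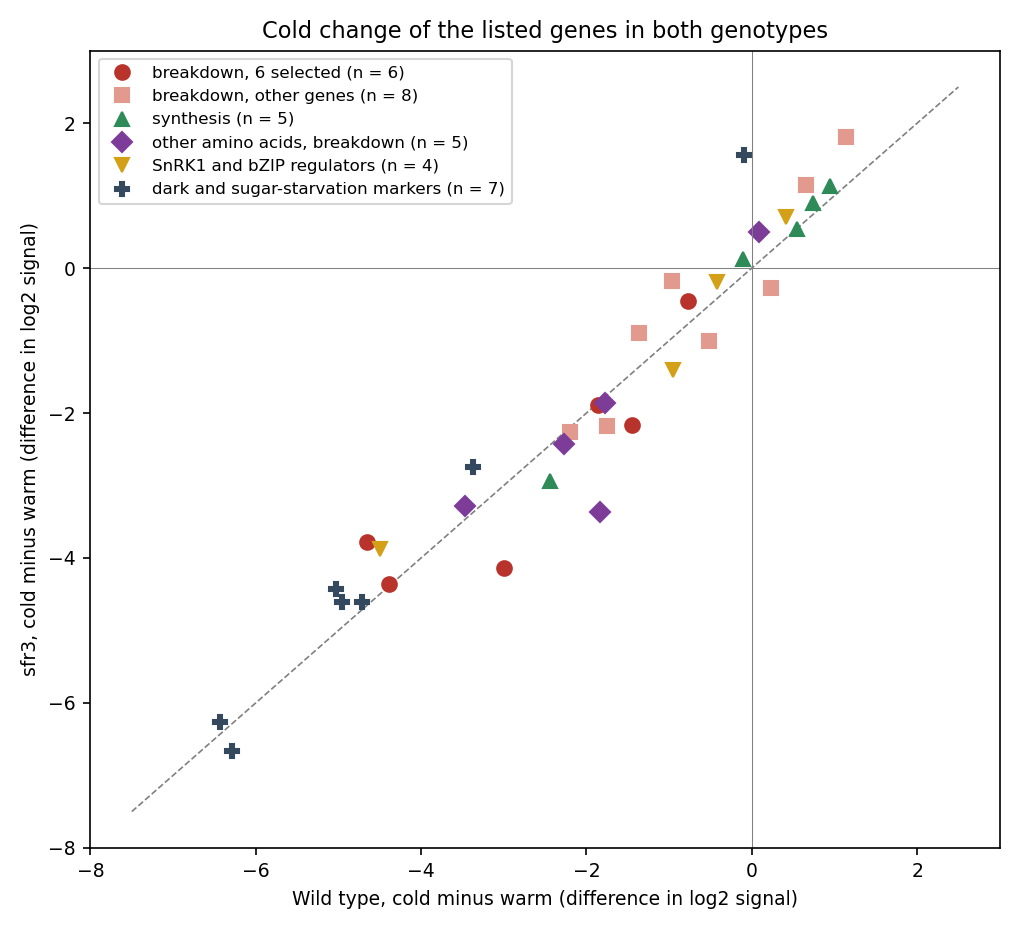
Cold minus warm difference in sfr3 (vertical axis) against that in wild type (horizontal axis), both on the log2(signal + 2.17) scale, for the members and the tested genes of the related lists. MCCA lies at -4.36 in sfr3 and -4.39 in wild type, near AKINBETA1 at -3.88 and -4.50, while the 2 synthesis genes that rose lie above 0 in both genotypes.

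Genes that govern the low-energy state, or mark it, were read beside the members. AKINBETA1, a beta subunit of the SnRK1 kinase, which acts when energy is low, had 105 and 56.7 units in sfr3 in the cold, against 1109 and 1231 units in sfr3 in the warm. It fell by 3.88 in sfr3 (limma adjusted p 2.39e-05) and fell by 4.50 in wild type (limma adjusted p 1.43e-05). BZIP53, a bZIP factor known to act on breakdown genes of proline and branched-chain amino acids, fell by 1.41 in sfr3 (adjusted p 0.00482) and fell by 0.95 in wild type (adjusted p 0.0301). The BZIP53 call in wild type did not hold when any single wild-type or warm sfr3 array was left out, at adjusted p of 0.0542 to 0.187. These were the 2 of 4 tested genes, of 15 listed SnRK1 and bZIP regulators, that were called in each genotype, and the median over the 4 was -0.80 in sfr3 and -0.69 in wild type. Of 18 listed dark and sugar-starvation markers 7 were tested, and 6 fell in each genotype, with medians of -4.60 in sfr3 and -4.96 in wild type. The remaining marker, STR18, was at 1.56 in sfr3 and -0.10 in wild type with no call, and in sfr3 at 0.72 without the array that stood apart. That list holds genes picked from these arrays, so its direction is not independent evidence. AT5G19120 was lowest in sfr3 at -6.66, with -6.29 in wild type, and AT2G20670 lowest in wild type at -6.43, with -6.27 in sfr3. Over the alternatives the sfr3 difference of AT2G20670 ran from -7.62 to -4.92.

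Of 13 listed biotin enzymes and biotin synthesis genes, only MCCA and MCCB had a probe set of their own, so the gene altered in sfr3 was not analysed here. Of 11 listed genes of peroxisomal beta-oxidation, 1 was tested. That gene, AIM1, was at -0.56 in sfr3 (adjusted p 0.0749) and -0.15 in wild type (adjusted p 0.681).

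Some other genes followed the members' mean profile over the 8 arrays more closely than any member did. They are the 5 nearest of all candidates, so their closeness follows from how they were picked. Likeness was the root mean squared log2 difference between centred profiles, over 7332 candidate probe sets with 1 gene each. The nearest was AT5G63190 at 0.0835, with cold changes of -2.95 in sfr3 and -2.64 in wild type. Then came AT1G25230 at 0.156, EXGT-A3 at 0.168, AT4G28240 at 0.175 and AT5G61590 at 0.178. The members themselves lay further from their own mean, from 0.483 for AT1G21400 to 1.09 for AT2G26800.

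Tissue markers were set beside these results. The summed signal of 4 leaf markers with a probe set, of 8 listed, was 18892 to 21427 units in sfr3 in the cold, 16733 to 17372 in wild type in the cold, 19994 to 21389 in sfr3 in the warm and 19020 to 24888 in wild type in the warm. One of these 4, LHCB4.2, fell in sfr3 at -0.91 (limma adjusted p 0.0384), a call lost without any single array other than replicate 2 of sfr3 in the cold, at adjusted p of 0.0639 to 0.155. Without the array that stood apart, LHCB4.2 was at -0.50 in sfr3, and LHCB4.3 was at -1.40, against -0.72 with all arrays. In wild type limma called 0 of the 4, and 1 had an unadjusted p below 0.05. LHCB4.2, at -0.66 in wild type, was called when only the wild-type arrays were fitted (limma adjusted p 0.00628). That fit also called more of all probe sets, and the difference was the same in it. The 3 root markers with a probe set, of 6 listed, summed to 214 and 82.8 units in sfr3 in the cold, 71.8 and 72.9 in wild type in the cold, 213 and 223 in sfr3 in the warm, and 231 and 157 in wild type in the warm. The root marker PYK10, the 1 tested, fell by 1.55 in sfr3 (adjusted p 0.0218) and fell by 2.33 in wild type (adjusted p 0.00342), the direction of the members. Over the alternatives its sfr3 difference ran from -2.265 to -0.829. Of 6 listed senescence markers the 1 tested, WRKY53, fell by 2.12 in sfr3 (limma adjusted p 0.0225) and fell by 2.48 in wild type (limma adjusted p 0.0124). On the array that stood apart WRKY53 read 9.11 units, below that array's background of 35.4 units, and on the other cold sfr3 array 48.1 units. Without the array that stood apart the sfr3 difference of WRKY53 was -1.04. The sfr3 calls of PYK10 and WRKY53 were lost without replicate 1 of sfr3 in the warm, at adjusted p of 0.113 and 0.131, and without replicate 2, at 0.103 and 0.0898. The wild-type call of WRKY53 was lost without any single wild-type array, at adjusted p of 0.058 to 0.106. Of 6 flower and stem markers 0 were paired with a probe set. None of these marker values was at 0, and their part in the members' values was not tested.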

How the data were processed

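The authors deposited 1 intensity (signal) per probe set and array, made with MAS5 and GCOS per the submitters' processing notes, and per the values scaled so that each array has about the same trimmed mean. The sources used here do not give the steps before that. Scanner files were not used here. Probe sets were named from the platform annotation, where 13513 had 1 gene, 503 several and 8730 none, and of 142 genes in 11 lists 45 had a probe set of their own and 40 were tested. Controls were left out, the brightest 60% of probe sets by mean over all arrays were kept (mean at least 26.7 units), and log2(signal + 2.17) was taken, where 2.17 is the 10th percentile of all values, so differences of dim genes are understated. limma 3.58.1 in R 4.3.3 fitted a mean for each of the 4 groups with an intensity trend (4 residual degrees of freedom), and Benjamini-Hochberg adjustment ran over the 13648 probe sets tested, with a call at an adjusted p below 0.05. SEs and 95% intervals come from this fit, which was tested on simulated data. The members and lists were chosen with earlier results of these data known. Genes named are all members, the breakdown genes, and the most changed called genes of the other lists (up to 3 each, plus proline dehydrogenase for its bound). The 5 most like the members' mean profile and called tissue markers were also named. LHCB4.2, LHCB4.3, STR18, AIM1, AT5G09300 and DELTA-OAT were named as single genes behind a count. Groups came from the sample labels. Alternatives were other pseudocounts, filters, normalizations, variance settings, array weights, a replicate block, only the groups compared, and leaving out each array. No sequences are shown and no promoter motif was searched.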

Additional observations from a re-analysis of the deposited data

How the results depend on the processing

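No called result turned its direction under the alternatives run. The members' median cold change in sfr3 was -2.73 with a pseudocount of 16, -3.22 with each array centred on its median, and -3.15 to -2.63 with each array left out in turn. In wild type it was -2.17 with a pseudocount of 16, and -2.60 to -2.26 with each array left out. The count of other breakdown genes called in the cold was 3 in sfr3 and 7 in wild type both with array weights and with only the groups compared. With each array left out it ran from 3 to 7 in sfr3 and from 2 to 7 in wild type. Members called between the genotypes ran from 0 to 3 in the cold, 0 to 3 for the interaction, 0 to 2 over both temperatures and stayed at 0 in the warm, with each array left out. The highest counts came without replicate 2 of sfr3 in the cold. The cause was not tested. Centring shifted the overall median of cold differences in sfr3 from 0.06 to -0.19 and the share of calls that rose from 47.6% to 30.9%. Over all settings, calls numbered 1867 to 7981 in sfr3 and 1500 to 6600 in wild type for the cold, 4 to 5372 between genotypes in the cold, 0 to 3802 for the interaction and 0 to 3251 over both temperatures. The differences of replicate 1 minus replicate 2 were hardly correlated between the groups (correlations of -0.0867 to 0.0525). This shows no effect shared by replicate number, but cannot tell whether samples of the same number were handled together. A replicate block left 4027 cold calls in sfr3 and 3397 in wild type with 0 members called between genotypes. The alternative of a second probe set gave no value, as no member has several, and the fit of only the groups compared needs all groups for the interaction and for both temperatures.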
